A study of Mus musculus with 12 samples.

Results

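The genes examined here are 7 members of the inhibitory receptor system of lymphocytes: the receptors Fcgr2b, Cd72, Pdcd1, Lag3 and Ctla4 and the ligands Cd274 and Cd200. They were listed by name, with earlier results of these data known. Among the probe sets that name 1 gene, the one with the highest mean stood for each gene. Each member has exactly 1, so 7 of 7 were measured among 19938 genes. All 7 lay above the filter on low values, a mean log2 RMA value of 5.49 over the 12 arrays, which left 14993 genes for the tests.

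Affymetrix gene arrays, 1 per sample, measured RNA of plasma cells sorted from mouse bone marrow, 6 samples from Zbtb32-/- donors and 6 from wild-type (Zbtb32 +/+) donors. In both groups, CD45.2 splenocytes of mice immune to NP-CGG (the hapten NP on a carrier protein) had been given to CD45.1 recipients, which were then challenged with NP-CGG, and cells were taken 7 days later. The sort kept NP-binding CD138+ CD45.2+ cells that lacked B220, Ly6g, CD11b and CD45.1. Zbtb32, a BTB zinc finger repressor, was thus missing from every donor cell of the Zbtb32-/- group and not from plasma cells alone, and the labels give neither the recipients' genotype at this gene nor age or sex. The series text calls the arrays biological replicates, its title names memory B cells, and the sample labels, followed here, name plasma cells.

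Inhibitory receptors raise the threshold at which a lymphocyte responds. Many carry tyrosine motifs in the cytoplasm that, once phosphorylated, recruit the phosphatases encoded by Ptpn6, Ptpn11 and Inpp5d, which remove phosphate groups added downstream of the antigen receptor. In the B lineage Fcgr2b senses IgG in immune complexes and, on plasma cells, can trigger cell death when crosslinked, whereas Cd72 marks B cells and is known to decline as they become plasma cells. Cd274, Cd200 and Lag3 are known on plasma cells that restrain other immune cells.

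The promoters of Cd72 and Fcgr2b are shown because these receptors had the highest Pearson's r across arrays among the member pairs, though not the closest relation by rank, and because Cd72 had the largest difference between genotypes. Each is the stretch of 250 bases before the gene's start, read 5′ to 3′ on the gene's strand, from RefSeq on build GRCm38.p6. The Cd72 stretch is chr4:43454627-43454876 and the Fcgr2b stretch chr1:170976072-170976321, both on the minus strand. Capitals mark the PU.1 core motif GAGGAAG or its variant GGGGAAG, on either strand, where PU.1 is an ETS factor of B and myeloid cells.
Cd72: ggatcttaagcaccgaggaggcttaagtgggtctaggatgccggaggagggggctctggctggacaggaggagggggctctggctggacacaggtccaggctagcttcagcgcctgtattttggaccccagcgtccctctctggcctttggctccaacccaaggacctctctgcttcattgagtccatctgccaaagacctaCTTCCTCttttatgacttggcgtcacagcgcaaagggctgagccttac
Fcgr2b: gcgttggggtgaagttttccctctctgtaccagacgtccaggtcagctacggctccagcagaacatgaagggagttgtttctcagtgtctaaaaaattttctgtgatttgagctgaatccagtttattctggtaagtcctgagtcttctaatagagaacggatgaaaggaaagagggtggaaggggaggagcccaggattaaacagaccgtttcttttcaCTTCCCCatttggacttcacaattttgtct
Of the 7 members, 6 had a promoter in the RefSeq table, and Lag3 had none in it. GAGGAAG was found in the promoters of Cd72 and Pdcd1, on opposite strands, and in 10.6% of all 32851 promoters of the same length. GGGGAAG was found in that of Fcgr2b and in 8.55% of all promoters. The letters of 6 other motifs, searched on both strands, were in none of the 6 member promoters: the element of interferon regulatory factors (GAAA, any 2 bases, GAAA), TTCNNNGAA of STAT factors, the TATA box TATAAA, the AP-1 site TGACTCA, the E box CACGTG and the CREB element TGACGTCA. Each of these 6 was held by between 1.55% and 12.4% of all promoters. The motifs were put together while these promoters were in view, and the letters describe the sequence and not binding.

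The Zbtb32 probe set ranged from 6.47 to 6.73 in Zbtb32-/- and from 6.39 to 6.88 in wild-type arrays (log2 RMA value), and the labels do not say which stretch of the gene is deleted, so this probe set checks nothing. Array medians lay between 6.28 and 6.43. Plasma cell markers were high on every array: Jchain, the joining chain of antibodies, averaged 13.65 and Xbp1, the secretory regulator, 13.02. Of the myeloid markers, the neutrophil genes S100a9 and Ngp were highest, at averages of 12.55 and 12.25, although the sort left out cells with Ly6g or CD11b. The B cell markers averaged between 5.79 (Cd83) and 12.16 (Cd74). The arrays least like the rest were wild-type replicates 2 and 6, with mean correlations of 0.933 and 0.938. The labels name no batch, and results are also given within replicates 1 to 3 and within replicates 4 to 6 of both genotypes, and without wild-type replicates 2 and 6 where that changed a direction or moved a value by over 1.5 times.

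No member passed the test between genotypes in the limma fit over all 14993 genes: 0 of 7 passed an adjusted p of 0.05, against 0.0% of all genes. At an unadjusted p under 0.05 there were also 0 of 7, against 4.28% of all genes. The difference, Zbtb32-/- minus wild type, was positive for 2 members and negative for 5, with a median of -0.12 (log2), against 52.9% of genes positive and a median of 0.012 over all genes tested. In each of the 7 genes the 2 genotypes overlapped, while 0.153% of all genes did not. Within replicates 1 to 3, 0 of 7 members passed (0.0% of all genes) and 0 of 7 had an unadjusted p under 0.05 (2.27% of all genes). Within replicates 4 to 6, 0 of 7 passed (0.00667% of all genes).

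**Figure D1:**
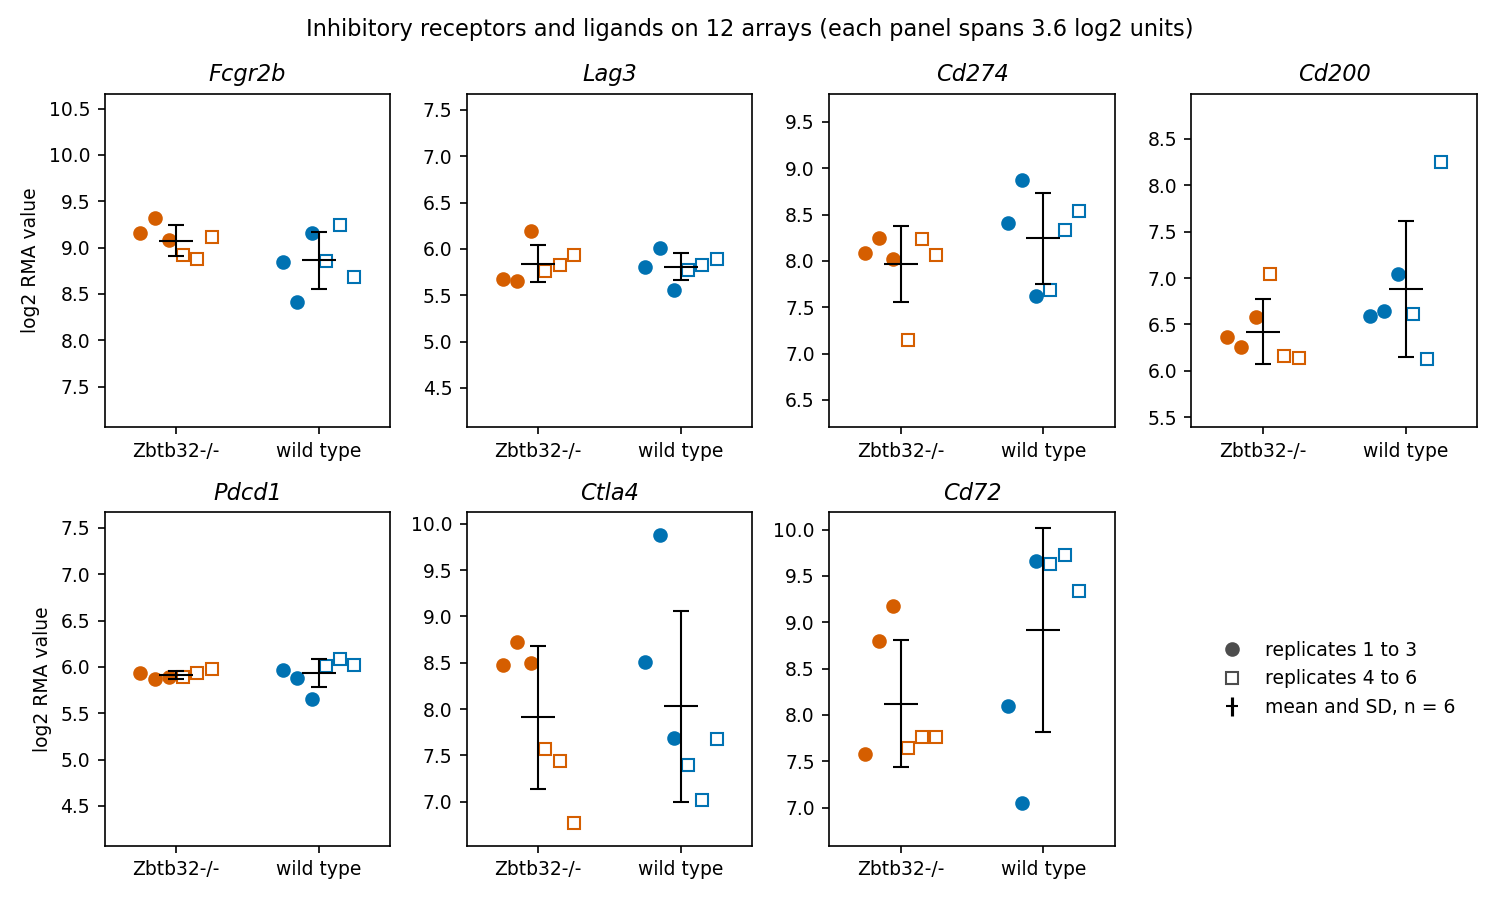
Log2 RMA value of the 7 genes on each array, Zbtb32-/- on the left and wild type on the right of each panel, filled circles for replicates 1 to 3 and open squares for replicates 4 to 6, with mean and SD (n = 6). The genotypes overlap in every panel, Lag3 and Pdcd1 hardly vary, and Ctla4 and Cd72 spread over 3.11 and 2.67 log2 units.

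Cd72, a B cell receptor with an inhibitory motif whose ligand is the semaphorin Sema4d, had the largest difference of the members. Its lowest, median and highest values were 7.58, 7.76 and 9.18 in Zbtb32-/- arrays, against 7.05, 9.48 and 9.72 in wild-type arrays. Most Zbtb32-/- arrays were low and most wild-type arrays high. Zbtb32-/- replicates 2 and 3 were higher than the others of their genotype, at 8.80 and 9.18. Wild-type replicates 1 and 2 were lower than the others of theirs, at 8.09 and 7.05. The means were 8.12 ± 0.69 in Zbtb32-/- and 8.92 ± 1.10 in wild-type cells (SD, n = 6 each). The difference of -0.80 (SE 0.46, 95% interval -1.78 to 0.19) did not pass (limma adjusted p = 0.933, two-sided exact permutation p = 0.154). On the linear scale the ratio was 0.576, with an interval from 0.290 to 1.14. In bulk samples, fewer cells of a type and less RNA per cell cannot be told apart.

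The Cd72 values differed in their pattern between the replicate sets. In replicates 4 to 6, Cd72 was 7.65, 7.76 and 7.76 in Zbtb32-/- cells, against 9.63, 9.72 and 9.34 in wild-type cells. These groups did not overlap, and the difference was -1.84 (SE 0.19, 95% interval -2.28 to -1.40), with an adjusted p of 0.0999 over all genes by limma and the 2nd smallest p of the 14993. Cd72 was the only 1 of 7 members with an unadjusted p under 0.05 in this set, against 7.05% of all genes, and 12.9% of genes did not overlap between genotypes. A permutation of 3 against 3 arrays cannot give a two-sided p under 0.1. In replicates 1 to 3, Cd72 was 7.58, 8.80 and 9.18 in Zbtb32-/- cells, against 8.09, 7.05 and 9.66 in wild-type cells. Here the groups overlapped, and the difference was 0.25 (SE 0.65). Whether the genotype difference itself differed between the sets was not tested, and without wild-type replicates 2 and 6 it was -1.16 over the remaining arrays.

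The relation of Cd72 with B cell markers did not pass after adjustment. Of 16 listed B cell markers 15 were measured, and their mean log2 level ranged from 8.37 to 8.81 in Zbtb32-/- and from 8.21 to 9.12 in wild-type arrays. It was highest in wild-type replicates 4 to 6, where it averaged 9.03, against 8.56 in Zbtb32-/- replicates 4 to 6. After each genotype's mean was subtracted, Cd72 and this mean had r = 0.77 and rho = 0.62 over 12 arrays (permutation p = 0.0031 and 0.0374, adjusted over 49 relations 0.0767 and 0.353). Without wild-type replicates 1 and 2, the arrays farthest from the median, r was 0.44. It was 0.81 within replicates 1 to 3 (permutation p = 0.0611 over all orders of 6 arrays) and 0.004 within replicates 4 to 6 (permutation p = 0.996 likewise). The summed linear level of the list ran from 12656 to 17144 in Zbtb32-/- and from 14492 to 18343 in wild-type arrays. All 15 measured markers lay above the filter on low values, though the lowest, Cd83 at 5.79, was not far above it. With erythroid markers Cd72 had r = 0.67 and rho = 0.57 (permutation p = 0.0186 and 0.0589, adjusted 0.181 and 0.353). That r was 0.50 without wild-type replicates 2 and 3, 0.92 within replicates 1 to 3 and 0.28 within replicates 4 to 6. The part of either list alone in the Cd72 difference was not tested.

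**Figure D2:**
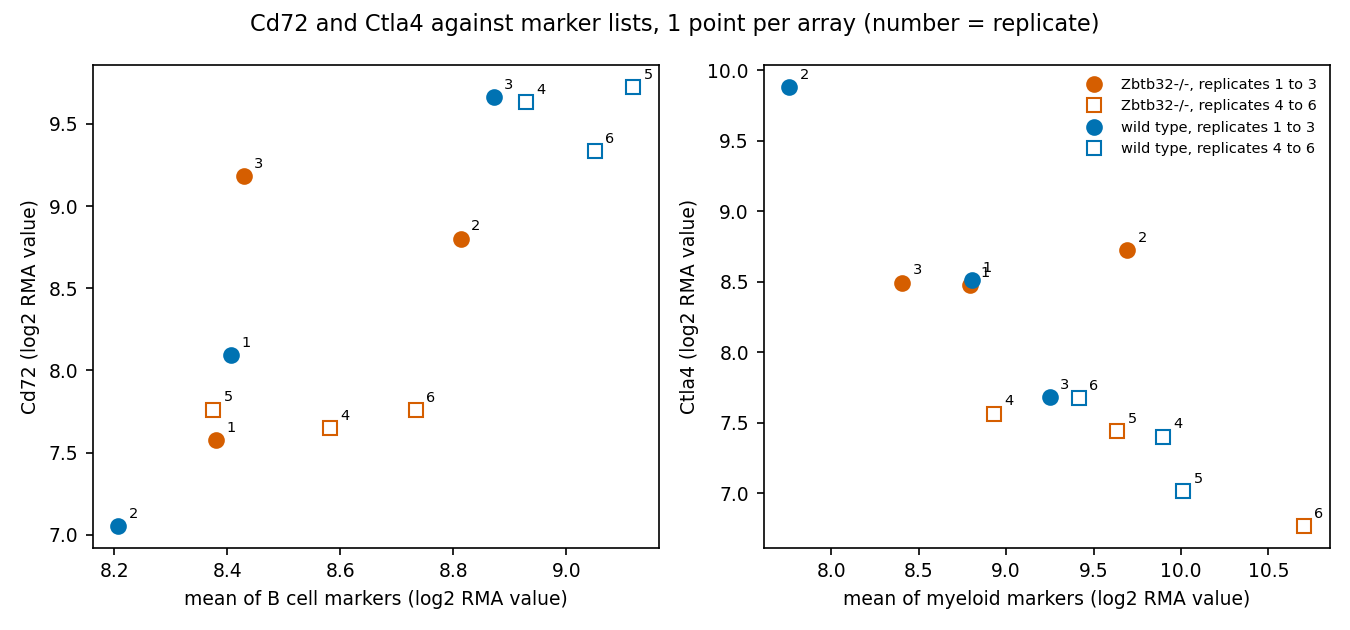
Left, Cd72 against the mean of 15 B cell markers, and right, Ctla4 against the mean of 17 myeloid markers, 1 point per array on log2 RMA scales, orange for Zbtb32-/- and blue for wild type, filled circles for replicates 1 to 3 and open squares for replicates 4 to 6. Wild-type replicates 3 to 6 lie at the upper right of the left panel, and Zbtb32-/- replicate 6 and wild-type replicate 2 lie at opposite ends of the right one.

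Fcgr2b, the inhibitory receptor for IgG, had a small positive difference. Its lowest, median and highest values were 8.88, 9.10 and 9.32 in Zbtb32-/- arrays, against 8.41, 8.85 and 9.25 in wild-type arrays. The 6 Zbtb32-/- arrays each exceeded the mean of the wild-type arrays, but the ranges overlapped. Fcgr2b averaged 9.08 ± 0.16 in Zbtb32-/- and 8.86 ± 0.31 in wild-type cells (SD, n = 6 each), a difference of 0.21 (SE 0.15, 95% interval -0.11 to 0.54, limma adjusted p = 0.933, exact permutation p = 0.165). The ratio of 1.16 had an interval from 0.925 to 1.45. The difference was 0.38 within replicates 1 to 3 and 0.042 within replicates 4 to 6. With wild-type replicate 2, the lowest array, left out it was 0.12, and with replicate 6 left out too it was 0.051. The relations of Fcgr2b with B cell and erythroid markers did not pass after adjustment, at r = 0.64 and 0.65 (permutation p = 0.0262 and 0.0221, adjusted 0.183 and 0.181). For B cell markers r was 0.43 without wild-type replicates 1 and 2, 0.90 within replicates 1 to 3 and 0.55 within replicates 4 to 6. For erythroid markers it was 0.24 without wild-type replicates 2 and 3, 0.89 within replicates 1 to 3 and 0.022 within replicates 4 to 6. With myeloid markers Fcgr2b had r = 0.51 over 12 arrays, which did not pass either (permutation p = 0.0901, adjusted 0.402). That r was 0.31 without Zbtb32-/- replicate 6 and wild-type replicate 2, 0.91 within replicates 1 to 3 and 0.58 within replicates 4 to 6. The part of these marker lists in the Fcgr2b values was not tested.

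Fcgr2b and Cd72 were the pair with the highest r among the members, at r = 0.70 and rho = 0.56 over 12 arrays (permutation p = 0.0116 and 0.0634). After adjustment over 21 pairs neither passed, at 0.244 and 0.583, and without wild-type replicates 2 and 5 r was 0.40. Within the replicate sets r was 0.79 and 0.80 (permutation p = 0.0625 and 0.0653 over all orders of 6 arrays each). By rank the closest pair was Pdcd1 and Ctla4, in opposite directions (rho = -0.76, permutation p = 0.0056, adjusted 0.118), for which r was -0.32. That pair ran in opposite directions in the sets, at r = 0.57 in replicates 1 to 3 and -0.89 in replicates 4 to 6. Of the 21 pairs, 0 passed an adjusted p of 0.05 by Pearson (1 at an unadjusted p under 0.05) or by Spearman (1 likewise).

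Pdcd1, which encodes the receptor PD-1 that binds the Cd274 product, was low and nearly constant. It had 5.87, 5.91 and 5.97 as lowest, median and highest value in Zbtb32-/- arrays, against 5.66, 5.99 and 6.09 in wild-type arrays. The difference was -0.023 (SE 0.077, 95% interval -0.19 to 0.14, limma adjusted p = 0.981, exact permutation p = 0.781). In replicates 4 to 6 the groups did not overlap, at 5.89, 5.93 and 5.97 in Zbtb32-/- and 6.01, 6.09 and 6.02 in wild-type cells, and the difference there was -0.11 (SE 0.099). In this set 2 of 7 members, Pdcd1 and Cd72, did not overlap between genotypes, against 12.9% of all genes. In replicates 1 to 3 it was 0.060, and with wild-type replicate 5 left out of the 12 arrays it was 0.0072.

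Lag3, a receptor related to CD4 that binds MHC class II, also varied little. Its lowest, median and highest values were 5.66, 5.79 and 6.19 in Zbtb32-/- arrays, against 5.56, 5.82 and 6.01 in wild-type arrays. The arrays of the 2 genotypes were intermixed. The difference was 0.032 (SE 0.10, 95% interval -0.19 to 0.25, limma adjusted p = 0.980, exact permutation p = 0.766). It was -0.039 with Zbtb32-/- replicate 3 left out, -0.018 with wild-type replicate 3 left out and 0.10 with wild-type replicates 2 and 6 left out. The probe sets of Lag3 and Pdcd1 lay at percentiles 32.6 and 35.0 of mean level over all genes, not far above the filter on low values at 5.49. Their spread within genotypes, an SD of 0.18 and 0.11, was below the median of 0.25 over all genes tested. RMA compresses differences at such levels, so the narrow intervals do not show that these transcripts were alike in both genotypes.

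Ctla4, the receptor that competes with Cd28 for Cd80 and Cd86, had the widest range among the members. Its lowest, median and highest values were 6.77, 8.02 and 8.72 in Zbtb32-/- arrays, against 7.02, 7.68 and 9.88 in wild-type arrays. The range over 12 arrays was 3.11, and the SD within genotypes, 0.91, lay at percentile 98.7 of all genes tested. The means were 7.91 ± 0.77 in Zbtb32-/- and 8.03 ± 1.03 in wild-type cells (SD, n = 6 each), a difference of -0.12 (SE 0.46, 95% interval -1.10 to 0.86, limma adjusted p = 0.985, exact permutation p = 0.827). The ratio of 0.923 had an interval from 0.467 to 1.82. The difference turned positive on leaving out wild-type replicate 2 (0.25), Zbtb32-/- replicate 6 (0.11) or wild-type replicates 2 and 6 together (0.26), and it was -0.32 with wild-type replicate 5 left out. With the replicate set as a term it stayed at -0.12, with an SE of 0.29 (limma adjusted p = 0.940).

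Ctla4 tended to be lower on arrays with higher myeloid markers, though not on every array. Zbtb32-/- replicate 2 had the highest Ctla4 value of its genotype, 8.72, with a myeloid mean of 9.69. In Zbtb32-/- cells Ctla4 was 8.48, 8.72 and 8.49 in replicates 1 to 3 and 7.57, 7.44 and 6.77 in replicates 4 to 6. In wild-type cells it was 8.51, 9.88 and 7.68 in replicates 1 to 3 and 7.40, 7.02 and 7.68 in replicates 4 to 6. Over both genotypes Ctla4 thus averaged 8.63 in replicates 1 to 3 and 7.31 in replicates 4 to 6. Of 18 listed myeloid markers 17 were measured, and their mean ranged from 8.40 to 10.70 in Zbtb32-/- and from 7.76 to 10.01 in wild-type arrays, lowest in wild-type replicate 2 and highest in Zbtb32-/- replicate 6. In replicates 1 to 3 the myeloid mean was 8.79, 9.69 and 8.40 in Zbtb32-/- cells and 8.80, 7.76 and 9.25 in wild-type cells. In replicates 4 to 6 it averaged 9.76 in Zbtb32-/- and 9.78 in wild-type cells. The list's summed linear level ran from 16430 to 78027 in Zbtb32-/- and from 8061 to 47944 in wild-type arrays, and all 17 lay above the filter on low values. With genotype means subtracted, Ctla4 and this mean had r = -0.84 and rho = -0.78 over 12 arrays (permutation p = 0.0007 and 0.0036, adjusted over 49 relations 0.0343 and 0.0892). The permutations over 12 arrays crossed the replicate sets, so their p-values do not separate the shift between sets from a relation within them. They also did not allow for the subtracted genotype means, so these p-values can be too small and the adjusted 0.0343 may not hold. Without Zbtb32-/- replicate 6 and wild-type replicate 2, which lie farthest from the median, r was -0.66. Within replicates 1 to 3 r was -0.67 (permutation p = 0.143 over all orders of 6 arrays) and within replicates 4 to 6 it was -0.91 (permutation p = 0.0028 likewise). With 6 arrays the subtracted means weigh more, so these p-values are not exact and can be well too small.

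This was the only 1 of the 49 relations between a member and a marker list that passed by Pearson (8 at an unadjusted p under 0.05), and by Spearman 0 passed (5 at an unadjusted p under 0.05). With the mean of 12 plasma cell markers Ctla4 had r = 0.71 and rho = 0.82 (permutation p = 0.0097 and 0.0022, adjusted 0.127 and 0.0892). Its r was 0.028 within replicates 1 to 3 and 0.53 within replicates 4 to 6. With the B cell mean Ctla4 had r = -0.71 and rho = -0.52 (permutation p = 0.0104 and 0.0890, adjusted 0.127 and 0.363). That r was -0.41 without wild-type replicates 1 and 2, -0.69 within replicates 1 to 3 and -0.63 within replicates 4 to 6. A further fit took the mean of T and NK, myeloid, basophil and mast cell and erythroid markers as a covariate. There the Ctla4 difference was -0.041 (SE 0.26, limma adjusted p = 0.984). The part of cell mixture in the spread of Ctla4 was not tested beyond that fit.

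Ctla4, Pdcd1 and Lag3 are best known from T cells, so T cell markers are given beside them. Of 18 T and NK markers, 17 were measured and 12 lay above the filter on low values, and the list's mean ranged from 5.67 to 5.95 in Zbtb32-/- and from 5.65 to 6.46 in wild-type arrays. Its summed linear level ran from 1123 to 1762 in Zbtb32-/- and from 1095 to 2069 in wild-type arrays. The defining genes Cd3d, Cd3e, Cd3g and Bcl11b averaged 5.68, 6.68, 5.59 and 6.38, and the highest members, the adhesion gene Cd2 and the granule gene Nkg7, averaged 7.74 and 7.25. On the array with the highest Ctla4 value, wild-type replicate 2 at 9.88, Cd3d, Cd3e and Cd3g were 5.87, 6.71 and 5.23. On wild-type replicate 6, where Cd3d and Cd3g reached 7.80 and 7.78, Ctla4 was 7.68. With the T and NK mean over 12 arrays, Ctla4 had r = -0.30 and rho = -0.35, Pdcd1 r = 0.47 and rho = 0.50, and Lag3 r = 0.13 and rho = 0.20 (permutation p of r = 0.343, 0.123 and 0.687, adjusted 0.579, 0.444 and 0.880). Without wild-type replicates 3 and 6 these r were -0.47, 0.042 and -0.31. The part of T cells in the values of Ctla4, Pdcd1 and Lag3 was not tested.

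Cd274, which encodes PD-L1, the ligand of PD-1, had a negative difference within its spread. Its lowest, median and highest values were 7.14, 8.08 and 8.24 in Zbtb32-/- arrays, against 7.63, 8.37 and 8.87 in wild-type arrays. Of the Zbtb32-/- arrays 5 lay close together between 8.02 and 8.24, and replicate 4 was far below them. The means were 7.97 ± 0.41 in Zbtb32-/- and 8.24 ± 0.49 in wild-type cells (SD, n = 6 each), a difference of -0.28 (SE 0.24, 95% interval -0.79 to 0.24, limma adjusted p = 0.933, exact permutation p = 0.316). The ratio was 0.825, with an interval from 0.577 to 1.18. The log2 difference was -0.11 with Zbtb32-/- replicate 4 left out, -0.15 with wild-type replicate 2 left out and -0.047 with wild-type replicates 2 and 6 left out.

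Cd200, a ligand that calms myeloid cells through the receptor encoded by Cd200r1, was lower on average in Zbtb32-/- cells but within the spread. Its lowest, median and highest values were 6.13, 6.31 and 7.04 in Zbtb32-/- arrays, against 6.13, 6.63 and 8.25 in wild-type arrays. Wild-type replicate 6 was the highest array of all, and 5 of 6 Zbtb32-/- arrays lay below the wild-type mean. The means were 6.42 ± 0.35 in Zbtb32-/- and 6.88 ± 0.73 in wild-type cells (SD, n = 6 each), a difference of -0.46 (SE 0.29, 95% interval -1.08 to 0.17, limma adjusted p = 0.933, exact permutation p = 0.193). It was -0.18 with wild-type replicate 6 left out and -0.17 with wild-type replicate 2 left out as well.

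In replicates 1 to 3, Cd200 was 6.37, 6.26 and 6.58 in Zbtb32-/- cells, against 6.59, 6.65 and 7.04 in wild-type cells. These groups did not overlap, although the nearest arrays lay close together. In that set 6.5% of all genes did not overlap between genotypes. The Cd200 difference there was -0.36 (SE 0.16). T and NK markers were also highest in wild-type replicate 6, and Cd200 had r = 0.67 with their mean over 12 arrays (permutation p = 0.0326, adjusted 0.200) but rho = 0.11. That r was 0.32 without wild-type replicates 3 and 6, -0.69 within replicates 1 to 3 and 0.89 within replicates 4 to 6. Their part in the Cd200 values was not tested.

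**Figure D3:**
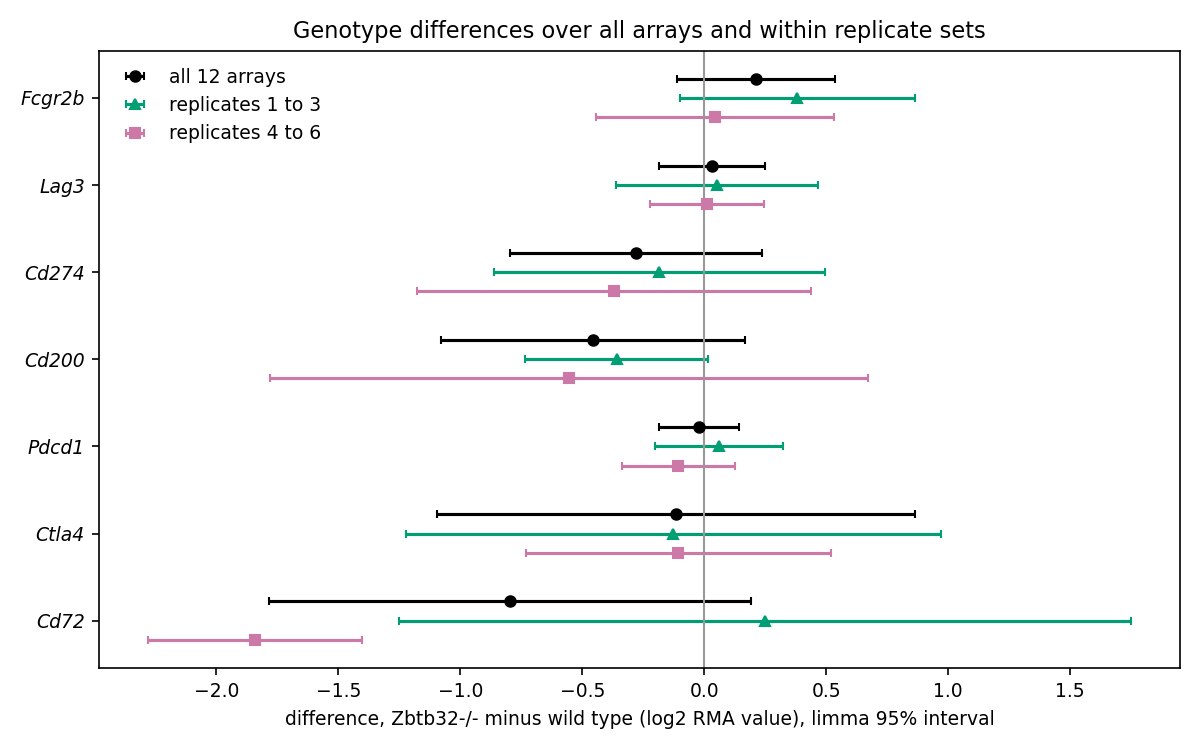
Zbtb32-/- minus wild type for the 7 genes with limma's 95% interval, over all 12 arrays (black circles), replicates 1 to 3 (green triangles) and replicates 4 to 6 (pink squares), on the log2 scale. Only the Cd72 interval of replicates 4 to 6, from -2.28 to -1.40, lies wholly on 1 side of 0.

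The genes most like each member in pattern were found by Pearson's r over the 12 arrays after genotype means were subtracted, among 13749 other genes, so high values arise by the choice alone. Nearest to Cd72 were Niban3, a B lineage gene (r = 0.94), Csrp2, a LIM domain protein (0.93), and Il7r, the interleukin-7 receptor chain (0.93). Within replicates 4 to 6 the r of Il7r was only 0.13. Nearest to Fcgr2b were Bcl2l1, the survival gene that encodes Bcl-xL (0.93), Tpp1, a lysosomal peptidase (0.92), and Chmp1b, of the ESCRT machinery (0.91). Nearest to Ctla4 were Mmp17, a membrane metalloproteinase (0.95), Crocc, which encodes rootletin (0.95), and B2m, the light chain of MHC class I (0.94).

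Cd274 was most like Rexo1 (0.97), Atp10a, a lipid flippase (0.85), and Tmem94 (0.85). Cd200 was most like Ten1, of a telomere complex, Jazf1 and Brix1, a ribosome assembly factor (each 0.90). The r of Cd200 with Jazf1 was -0.62 within replicates 1 to 3. That of Cd200 with Ten1 was 0.55 there. Pdcd1 was most like Pdzd7 (0.93), Ccn5 (0.90) and Wtip (0.86), and Lag3 most like Cnfn (0.91), Tssk3 (0.91) and Ccdc110 (0.88). Within replicates 4 to 6 the r of Lag3 with Ccdc110 was 0.21 and that of Pdcd1 with Wtip 0.48. Of these 21 genes, 0 passed the limma test between genotypes, with the adjusted p at or above 0.933.

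None of the members' binding partners passed the test. Of 14 listed, 12 lay above the filter on low values, and 0 passed in either direction, with 6 positive differences and a median of 4.2e-05, against a median of 0.012 over all genes. The smallest p-values were those of Icos, a costimulatory receptor akin to Cd28, at 5.72 ± 0.10 in Zbtb32-/- and 5.94 ± 0.40 in wild-type cells, and of Cd80, a ligand of both Ctla4 and Cd28, at 7.78 ± 0.25 in Zbtb32-/- and 7.50 ± 0.61 in wild-type cells (SD, n = 6 each). Their differences were -0.22 (SE 0.15) and 0.27 (SE 0.25). Among partners named after their values were seen, Pdcd1lg2, the other ligand of PD-1, differed by 0.047 (SE 0.14) and Sema4d by 0.034 (SE 0.12). Cd200r1, at a mean of 4.48, and Fgl1, a ligand of Lag3, at 5.09, lay below the filter and were not tested.

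Among 21 other inhibitory receptors and their ligands, 17 were tested and 0 passed, with 8 positive differences and a median of -0.029. Cd5, an inhibitor of antigen receptor signals, was 6.30 ± 0.073 in Zbtb32-/- and 6.49 ± 0.15 in wild-type cells, a difference of -0.19 (SE 0.085, limma unadjusted p = 0.0441, adjusted p = 0.933). Siglecg, a sialic acid receptor of B cells, was 8.82 ± 0.19 in Zbtb32-/- and 9.07 ± 0.20 in wild-type cells, a difference of -0.25 (SE 0.13).

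Of 15 listed phosphatases, kinases and adaptors downstream of inhibitory receptors, 12 were tested and 0 passed, with 5 positive differences and a median of -0.046. Cblb, a ubiquitin ligase that restrains antigen receptor signals, was 7.16 ± 0.24 in Zbtb32-/- and 7.72 ± 0.47 in wild-type cells, a difference of -0.56 (SE 0.20, limma unadjusted p = 0.0145, adjusted p = 0.933). Sh2d1b1, which encodes an adaptor of the SAP family, differed by -0.41 (SE 0.29). The phosphatase genes that many inhibitory receptors recruit did not pass either, with differences of 0.029 (SE 0.24) for Ptpn6, 0.14 (SE 0.13) for Ptpn11 and -0.017 (SE 0.16) for Inpp5d. Over the 3 lists, 2 of 41 genes had an unadjusted p under 0.05, or 4.88%, against 4.28% of all genes.

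**Figure D4:**
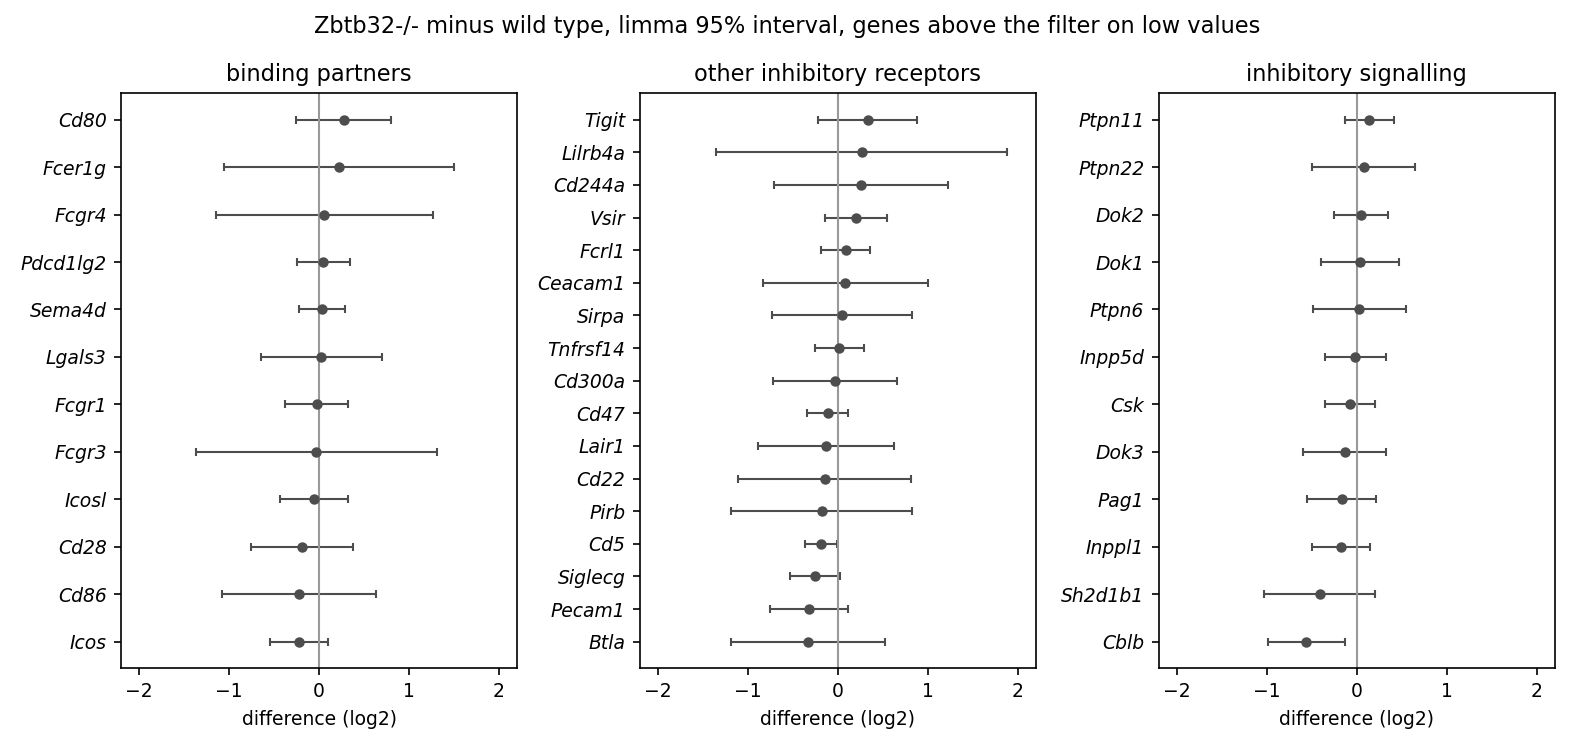
Zbtb32-/- minus wild type with limma's 95% interval for binding partners, other inhibitory receptors and signalling genes above the filter on low values, sorted by difference on a log2 axis. Of the 41 genes only Cd5 and Cblb have intervals that leave out 0, and none passed after adjustment.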

How the data were processed

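The deposited values are log2 levels per probe set. The authors used Affymetrix Expression Console and RMA, as the submitters' processing notes name them without versions. RMA takes off background, gives arrays like distributions, compresses low values and hides differences in total RNA, and the labels do not state whether all 12 arrays were normalized together. Of 35556 probe sets, 21789 name exactly 1 gene in the platform annotation, 1621 name several and 12146 are unnamed here. Through Entrez identifiers, 21698 of the 21789 matched RefSeq (GRCm38.p6). Where several such probe sets name a gene, the highest by mean was used. The filter on low values, the 25th percentile of single-gene probe sets (5.49), removed genes that did not exceed it.

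The tests used R 4.3.3 with limma 3.58.1 (lmFit, eBayes with trend, genotype only), adjusted by Benjamini-Hochberg over 14993 genes. Exact permutation tests of genotype differences used all 924 assignments of arrays, two-sided. Correlations used 100000 permutations, or all orders with 6 arrays, of values from which genotype means were subtracted. These values were shuffled across genotypes without allowing for the subtracted means. The p-values of correlations can therefore be too small, most so with 6 arrays. The fit was tested on simulated data (14993 genes, 200 changed, 6 against 6 arrays): it recovered 31.2% of genes changed by 0.5 log2 units, 80.5% of those changed by 1 and 98.4% of those changed by 2. These shares are over genes of all spreads and do not carry over to Cd72 and Ctla4, whose SD within genotypes (0.92 and 0.91) lies at percentile 98.7 of the genes tested. The simulated noise was independent for each gene and array, and 200 changed genes ease the adjustment. The shares thus do not carry over to a lone changed gene either.

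The members, the gene lists and the split of replicates 1 to 3 from 4 to 6 were chosen with earlier results of these data known. Named genes are the members, the 3 genes most like each by r (predicted genes, receptor families, small RNAs and immunoglobulin or T cell receptor segments left out), the 2 list genes with the smallest p, and the 2 highest and the defining genes of marker lists. Alternatives covered normalization, filter, probe set choice, variance model, array weights, the replicate block, replicate sets, a marker covariate and left-out arrays.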

Additional observations from a re-analysis of the deposited data

Results flagged for a closer look

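An array stood apart from the others of its group, by a gap that filled more of the group's range than Dixon's 95% critical value for 6 samples allows, in 10 of 82 groups looked at, where about 1 in 20 would do so by chance. Among the members this was 1 of 14: Cd274 in Zbtb32-/- replicate 4, at 7.14, with the nearest array of its genotype at 8.02. Zbtb32-/- replicate 4 was also high in Cd3g, at 6.76, and in Cox6a2, a gene of plasmacytoid dendritic cells, at 7.46. Zbtb32-/- replicate 6 was high in the myeloid receptor gene Csf1r, at 8.39. Wild-type replicate 2 was low in Cd80, at 6.32, and in Ngp, at 9.15, and high in Jchain, at 13.94. Wild-type replicate 4 was high in the basophil gene Prss34, at 8.30, and in the basophil and mast cell mean, at 5.89. Wild-type replicate 6 was high in Cd3d, at 7.80. Their part in the members' values was not tested.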

How the results depend on the processing

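Over 25 other settings the members' differences were computed 173 times. In 163 of these the sign held, and 0 passed an adjusted p of 0.05 (lowest 0.0999, Cd72 in replicates 4 to 6). Part of the 163 held by construction: the filters, probe set choice, variance model, replicate block and replicate set term cannot alter a member's difference. The sign turned for Cd72 in replicates 1 to 3 (0.25), for Pdcd1 there (0.060) and after renewed quantile normalization (0.016), and for Ctla4 with array weights (0.17) and without wild-type replicates 2 and 6 (0.26). The cause was not tested. With the marker covariate the Cd72 difference was -0.85 (SE 0.39, limma unadjusted p = 0.0487, adjusted p = 0.802) and that of Fcgr2b 0.20 (SE 0.14, adjusted p = 0.808). On leaving out single arrays, Cd72 ranged from -1.17 to -0.63, Cd200 from -0.61 to -0.18, Cd274 from -0.40 to -0.11, Ctla4 from -0.32 to 0.25, Fcgr2b from 0.12 to 0.29, Lag3 from -0.039 to 0.072 and Pdcd1 from -0.079 to 0.0072. Same-numbered arrays of the 2 genotypes had deviations correlated from 0.019 to 0.47, not over 0.1 in every pair, and not every array correlated best with its own number, so the numbers were not taken as pairs. Each array did correlate best with an array of the other genotype from its own replicate set, 1 to 3 or 4 to 6. With a replicate block 0 genes passed (914 at an unadjusted p under 0.05, against 642 without it), the Cd72 difference was -0.80, and no call changed. Over all genes 0 passed in each setting, except 1 in replicates 4 to 6, the small RNA gene Rny1, named after its value was seen. Of 21 member pairs 0 passed in each setting. Of 49 relations with marker lists, 1 passed by Pearson, 0 by Spearman, 0 without the 2 arrays farthest from the median, 0 within replicates 4 to 6 and 2 within replicates 1 to 3, those of Fcgr2b with basophil and mast cell markers (r = -0.92, against -0.072 over all 12 arrays and -0.24 in replicates 4 to 6, with 3 of 8 markers above the filter on low values) and of Cd72 with erythroid markers (r = 0.92, against 0.67 and 0.28). The settings by rank, by set and without 2 arrays were chosen for these 49 after seeing the data. The permutations did not allow for the subtracted genotype means, so the relations that passed within replicates 1 to 3 may not hold. Lag3 and Pdcd1 have no value under the stricter filter, which they did not pass.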
